A study of Mus musculus with 9 samples.

Results

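The NR4A genes Nr4a1, Nr4a2 and Nr4a3, which encode a family of nuclear receptors, were followed across MS1 cells carrying the TAZ-CAMTA1 fusion, the TAZ4A construct or a control vector. They were chosen by symbol, 3 of the 17565 genes in the gene table, and the choice was made knowing that Nr4a2 was among the largest falls with the fusion. Nr4a1 and Nr4a2 were among the 12350 genes that passed the filter on low values (at least 0.5 CPM in at least 3 libraries), and Nr4a3 was not. MS1 is a mouse endothelial line from the pancreas. Poly-A RNA was sequenced from 3 libraries of cells stably carrying pCDH-TAZ-CAMTA1, 3 of cells carrying pCDH-TAZS4A (the group labelled TAZ4A) and 3 of cells carrying pCDH-puro (control). Wwtr1 encodes TAZ, a co-activator of TEAD factors that the Hippo kinases restrain, TAZ4A is a form with Hippo phosphorylation sites changed from serine to alanine, and TAZ-CAMTA1 is the fusion oncoprotein of epithelioid hemangioendothelioma, a vascular cancer. All groups, control included, carried a lentiviral vector, the constructs came on top of the cells' own Wwtr1, and the labels do not say whether replicates came from separate transductions or cultures, so the spread between libraries may be technical.

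NR4A receptors bind DNA as monomers at an AAAGGTCA element or as dimers, and their ligand-binding pocket is filled by amino acid side chains, so their activity is set mainly by how much of the protein is made. They are immediate early genes, switched on within minutes by cAMP, calcium, growth factor and inflammatory signals through CREB, MEF2 and SRF. In endothelium NR4A1 (Nur77) is known for its induction by VEGF and its part in angiogenesis and vascular permeability, NR4A2 (Nurr1) is best known for dopaminergic neuron development, and NR4A3 (Nor1) is induced in vascular cells by growth factors.

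The sequences just upstream of the RefSeq starts of both detected members are shown because cAMP response elements there are the textbook route by which the family is induced. Each is the 250 bases before the RefSeq start (GRCm38.p6), 5′ to 3′ on the gene's strand, at chr15:101266596-101266845 (plus strand) for Nr4a1 and chr2:57124004-57124253 (minus strand) for Nr4a2, and capitals mark TGACG, the core of the cAMP response element, on either strand.
Nr4a1: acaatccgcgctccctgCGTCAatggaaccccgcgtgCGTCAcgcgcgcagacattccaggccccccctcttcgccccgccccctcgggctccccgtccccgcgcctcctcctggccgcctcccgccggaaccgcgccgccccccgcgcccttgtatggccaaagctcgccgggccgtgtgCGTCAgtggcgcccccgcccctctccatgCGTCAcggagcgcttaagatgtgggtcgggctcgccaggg
Nr4a2: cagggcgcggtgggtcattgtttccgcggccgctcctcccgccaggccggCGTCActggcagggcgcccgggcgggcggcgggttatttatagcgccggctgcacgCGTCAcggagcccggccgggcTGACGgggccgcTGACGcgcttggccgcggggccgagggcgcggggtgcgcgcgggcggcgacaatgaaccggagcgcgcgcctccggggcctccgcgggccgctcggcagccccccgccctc
The Nr4a3 window, chr4:48045055-48045304 (plus strand), was searched but is not printed, because the GENCODE starts of Nr4a3-201 (48045153) and Nr4a3-204 (48045231) lie inside it. Each window held 4 copies of TGACG, whose first bases lay at -233, -213, -69 and -40 from the start in Nr4a1, at -200, -144, -123 and -111 in Nr4a2 and at -231, -213, -205 and -147 in Nr4a3, counted from the RefSeq start. Of 32851 RefSeq promoters of the same length, 17.8% held at least 1 TGACG and 0.137% held 4 or more. None of the 3 windows held the full palindrome TGACGTCA (1.55% of promoters did), the AP-1 element TGANTCA (6.75%) or the NR4A element AAAGGTCA (1.34%). The TEAD element CATTCC was found once in the Nr4a1 window, at -198, and once in the Nr4a3 window, at -195, and was not found in the Nr4a2 window (12.6% of promoters held it). All motifs were searched on both strands, and a match describes letters, not occupancy.

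The libraries held 21966004 to 34224715 reads assigned to genes, so that 3 reads, the upper limit a count of 0 allows, amounted to 0.0878 to 0.139 CPM. TAZ-CAMTA1 replicate 2 stood apart from every other library, with correlations of 0.963 and 0.962 to its own replicates where all other replicate pairs reached at least 0.997, and with 30.6% of its junction reads multi-mapped, against 20.8% to 22.2% in the others. Leaving it out raised the calls over all genes, to 28.5% risen and 32.3% fallen in TAZ-CAMTA1 against control (16.8% and 15.3% with it), to 28.1% and 30.3% in TAZ4A against control (13.2% and 11.7%) and to 30.8% and 32.2% in TAZ-CAMTA1 against TAZ4A (19.4% and 18.5%). Camta1 was 13.1 ± 0.579 CPM with TAZ-CAMTA1, 4.91 ± 0.253 CPM under the TAZ4A label and 4.05 ± 0.923 CPM in control (SD, n = 3 each). Wwtr1 went against the label of the TAZ4A group, at 436.8 ± 94.4 CPM with TAZ-CAMTA1, 324.5 ± 8.70 CPM there and 550.7 ± 17.6 CPM in control, and whether the construct's own transcript maps to this gene is not stated, so the group is called by its label. Of 10 endothelial markers, 9, 8 and 8 exceeded 1 TPM with TAZ-CAMTA1, TAZ4A and control, with summed levels of 5280 to 8035 TPM, 5054 to 5146 TPM and 6828 to 7239 TPM. The 5280 TPM is TAZ-CAMTA1 replicate 2, and its other two libraries, at 8019 and 8035 TPM, lay above every control library. Cldn5 was at or near 0 in all groups, at most 0.154 TPM. Markers of other cell types summed, in TAZ-CAMTA1, TAZ4A and control, to 0.261 to 0.464, 9.93 to 11.1 and 0.202 to 0.451 TPM for smooth muscle (5 genes, mostly Cnn1 in TAZ4A; Rgs5 had 0 reads with TAZ-CAMTA1 and TAZ4A, and Cnn1 with TAZ-CAMTA1) and to 1.61 to 3.73, 6.04 to 6.46 and 1.08 to 1.19 TPM for fibroblasts (4 genes; Lum had 0 reads with TAZ-CAMTA1 and Dcn in control). Epithelial markers (Cdh1 and Krt19; Epcam was not analysed here) came almost entirely from Krt19, at 1.51 to 3.16, 14.7 to 18.3 and 0.791 to 0.988 TPM. Of the leukocyte markers, Cd68 stood at 891.0 to 1117, 782.4 to 793.8 and 876.5 to 1001 TPM, and Ptprc stayed under 0.1 TPM in every library. Pancreatic markers summed to at most 0.518 TPM. Their part in the results below was not tested.

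Nr4a1 (chr15:101266846-101274794, plus strand, mm10) had the highest TPM of the family in every group, and its level was lowest with the fusion. It stood at 22.1, 25.9 and 23.5 CPM (reads relative to library size, scaled by the authors) in the 3 TAZ-CAMTA1 libraries, at 28.8, 30.9 and 30.4 CPM in those labelled TAZ4A and at 101.7, 99.5 and 97.1 CPM in control. The groups did not overlap in any pair, and the share of all genes that separated in this way is not given here. On the log2(CPM + 0.5) scale the difference of TAZ-CAMTA1 from control was -2.04 ± 0.078 (SE), with a mean 76.0% lower, and that of TAZ-CAMTA1 from TAZ4A was -0.33 ± 0.078, 20.5% lower. Both hold the fusion libraries that chose the genes and are given without a test. The comparison of TAZ4A with control does not hold them but shares the control libraries. There Nr4a1 fell by 1.71 ± 0.078 on the log2 scale (limma adjusted p = 1.29e-06 over all genes tested), a mean 69.8% lower, and lower in 3 of 3 libraries. Among 12350 genes, 11.7% fell and 13.2% rose in that comparison, and Nr4a1 ranked 36 among the 1447 falls. With bulk RNA, fewer cells expressing a gene and less RNA per cell cannot be told apart.

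Nr4a2 (chr2:57107226-57124003, minus strand) was less abundant and changed further. The TAZ-CAMTA1 libraries had 1.30, 0.705 and 1.26 CPM (42, 21 and 29 reads), the TAZ4A libraries 2.69, 2.49 and 3.04 CPM (87, 85 and 99 reads) and the control libraries 13.5, 12.3 and 12.3 CPM (290, 413 and 392 reads). No pair of groups overlapped, again without the share of all genes beside it. The log2 difference of TAZ-CAMTA1 from control was -3.08 ± 0.16, with a mean 91.4% lower, and it was -2.89 without TAZ-CAMTA1 replicate 2. The genes were chosen knowing this fall, so the Nr4a2 differences that hold the fusion libraries are given without a test. Its place among the falls follows from that choice and is a description only. On this scale its place beside the 1887 falls that passed the threshold was 2, after Ptgs2, the inducible cyclooxygenase (-3.16 ± 0.25). The place changed with the scale, to 5 by edgeR and 4 by DESeq2, where Ptgs2 fell less (-3.16 by both), to 4 with a pseudocount of 2, and to 1 without TAZ-CAMTA1 replicate 2. In that comparison 15.3% of genes fell and 16.8% rose. TAZ-CAMTA1 differed from TAZ4A by -1.05 ± 0.16, and by -0.86 without replicate 2. Against control, Nr4a2 fell by 2.03 ± 0.16 in the libraries labelled TAZ4A (limma adjusted p = 3.57e-05), 78.4% lower in the mean and lower in 3 of 3, at rank 19 among the falls. At these reads the pseudocount shrinks the fold: the authors' deposited table gives -3.54 for TAZ-CAMTA1 and -2.21 for TAZ4A against control, and -2.06 and -1.73 for Nr4a1.

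Nr4a3 (chr4:48051248-48083352 in the gene table, plus strand, a start downstream of RefSeq's) was at the limit of detection. The TAZ-CAMTA1 libraries had 3, 0 and 0 reads, the TAZ4A libraries 3, 1 and 4 and the control libraries 2, 0 and 3. The groups overlapped, and a difference was not detectable at this depth.

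**Figure D1:**
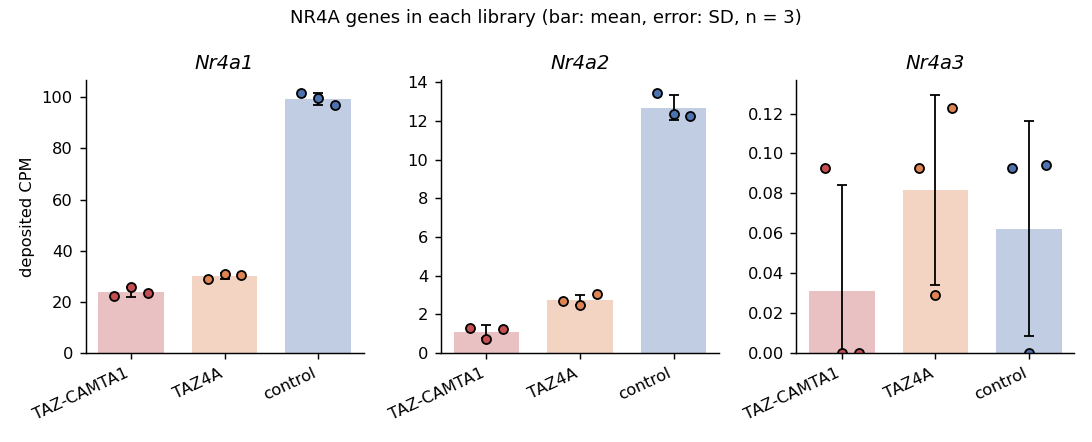
Deposited CPM of the 3 NR4A genes (vertical axes, linear from 0, a scale each) in TAZ-CAMTA1, TAZ4A and control cells (horizontal axis), with points for single libraries and bars and error bars for mean and SD. Nr4a1 lies at 22.1 to 25.9, 28.8 to 30.9 and 97.1 to 101.7 CPM, Nr4a2 shows the same order of groups, and Nr4a3 stays at 4 reads or fewer in every library.

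The balance between both detected members was also compared. On the length-scaled TPM unit, Nr4a1 exceeded Nr4a2 by 23.0, 49.6 and 25.2 times in the TAZ-CAMTA1 libraries, by 14.4, 16.8 and 13.5 times in those labelled TAZ4A and by 10.2, 10.9 and 10.7 times in control. The ratios of the groups did not overlap, the fusion's highest one came from replicate 2, and the two-sided exact permutation test of TAZ4A against control gave p = 0.1, the smallest possible. As levels, Nr4a1 averaged 22.4 ± 1.36, 30.5 ± 1.11 and 97.7 ± 2.18 TPM and Nr4a2 0.779 ± 0.306, 2.06 ± 0.219 and 9.23 ± 0.520 TPM in TAZ-CAMTA1, TAZ4A and control cells (SD, n = 3 each).

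Among all nuclear receptor genes, Nr4a1 had the highest level in control cells. Of 49 nuclear receptor genes listed, 41 were in the table, 28 passed the filter and 24 exceeded 1 TPM in control. Nr4a1 ranked 14 with TAZ-CAMTA1, 9 under the TAZ4A label and 1 in control, where its lowest library (95.8 TPM) lay above the highest of Nr1d2, the circadian repressor REV-ERB beta (92.7 TPM). With TAZ-CAMTA1 its range overlapped those of Rara, Nr2f6 and Rxra, its nearest neighbours in the order. Nr4a2 ranked 27, 24 and 18 in TAZ-CAMTA1, TAZ4A and control cells, and among its neighbours in the order its range overlapped those of Thrb with TAZ-CAMTA1, of Thrb and Nr1h3 with TAZ4A and of Nr2f1 and Rorb in control. Nr4a3 ranked 34, 31 and 29. Apart from the NR4A genes, 26 nuclear receptors were tested. In TAZ-CAMTA1 against control 9 rose and 5 fell, beside 16.8% and 15.3% of all genes. The median log2 change was 0.24, beside -0.03 over all genes tested. Without replicate 2 the counts were 13 and 6 (median 0.28), beside 28.5% and 32.3% of all genes. Pparg, the adipogenic and vascular receptor, rose by 1.57 ± 0.11, Thrb, a thyroid hormone receptor, fell by 1.94 ± 0.19 and Rorb fell by 0.97 ± 0.07. Without control replicate 2 or 3, 3 fell. In TAZ4A against control 8 rose and 2 fell (median -0.02, all genes -0.01), beside 13.2% and 11.7% of all genes. However, without any single control or TAZ4A library 2 to 3 rose and 0 to 1 fell. Without TAZ-CAMTA1 replicate 2 the counts were 9 and 7, beside 28.1% and 30.3% of all genes.

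**Figure D2:**
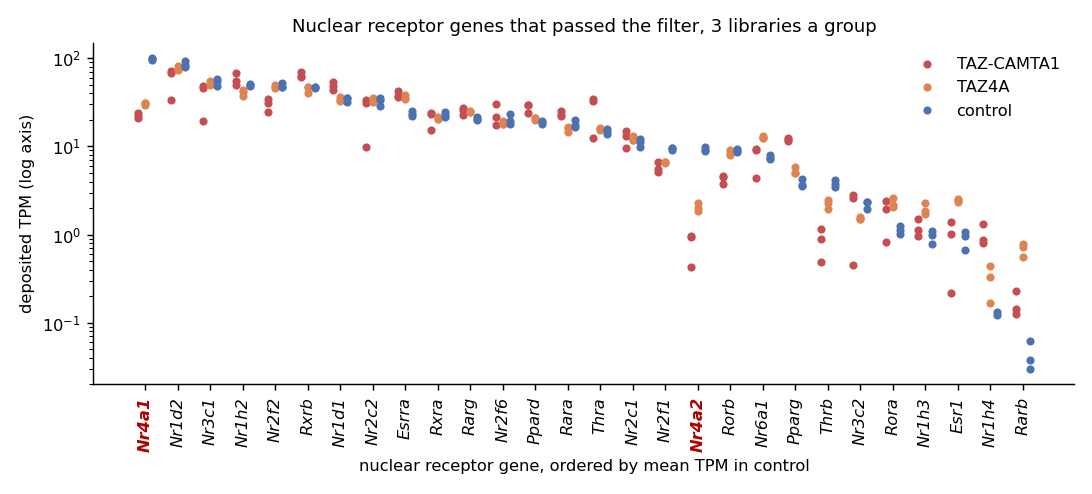
Deposited TPM (vertical log axis) of the 28 nuclear receptor genes that passed the filter, ordered by mean level in control (horizontal axis), with 1 point per library for TAZ-CAMTA1, TAZ4A and control. Nr4a1 is first in control at 95.8 to 100.1 TPM and lies at 21.1 to 23.9 TPM with TAZ-CAMTA1 and 29.2 to 31.3 TPM with TAZ4A.

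Spliced reads gave a second count from the same libraries, restricted to reads that cross an intron. Nr4a1 had 128, 150 and 85 such reads with TAZ-CAMTA1, 200, 210 and 208 under the TAZ4A label and 421, 650 and 624 in control, which is 15.6 ± 4.02, 21.5 ± 0.488 and 65.5 ± 1.10 RPM, the reads relative to all unique junction reads of a library (SD, n = 3 each). Without replicate 2, the highest fusion library at every intron, the TAZ-CAMTA1 mean was 13.2 RPM. The two-sided exact permutation test of TAZ4A against control gave p = 0.1, the smallest that 3 against 3 libraries allow. The lower level held at every intron of Nr4a1-201 (GENCODE vM21), at 14.99% to 27.3% of the control mean with TAZ-CAMTA1 and 23.6% to 36.4% of it with TAZ4A. The junction of exons 1 and 2 had 4, 6 and 5 reads with TAZ-CAMTA1, 12, 11 and 7 with TAZ4A and 37, 30 and 43 in control. A first exon further upstream, used by Nr4a1-202, was joined to the same next exon by 3 of 18 reads with TAZ-CAMTA1 (16.7%, Wilson 95% interval 5.84% to 39.2%), 7 of 37 with TAZ4A (18.9%, 9.48% to 34.2%) and 11 of 121 in control (9.09%, 5.15% to 15.5%). By library they were 1 of 5, 2 of 8 and 0 of 5 reads with TAZ-CAMTA1. With TAZ4A they were 3 of 15, 2 of 13 and 2 of 9 reads (20.0%, 15.4% and 22.2%). In control they were 2 of 39, 5 of 35 and 4 of 47 reads (5.13%, 14.3% and 8.51%). The TAZ4A libraries lay above every control library, narrowly and on few reads, and the exact permutation test between them gave p = 0.1, the smallest possible. The pooled intervals overlap and cover counting error only.

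**Figure D3:**
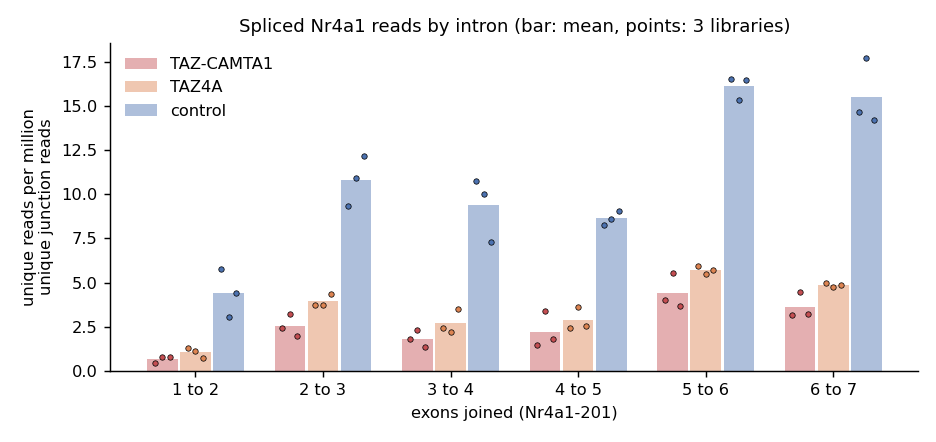
Uniquely mapped reads across each intron of Nr4a1-201, in RPM of unique junction reads (vertical axis, from 0), by the exons joined (horizontal axis), as group means (bars) and single libraries (points) for TAZ-CAMTA1, TAZ4A and control. Control is the highest group at all 6 introns, and TAZ-CAMTA1 means lie at 14.99% to 27.3% of it.

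Nr4a2 had 14 spliced reads over the TAZ-CAMTA1 libraries, 42 over those labelled TAZ4A and 171 over control, or 0.550 ± 0.470, 1.47 ± 0.386 and 6.64 ± 0.389 RPM of unique junction reads (exact p = 0.1 for TAZ4A against control), and 0.758 RPM with TAZ-CAMTA1 without its replicate 2, which had 1 such read. The start at which the printed Nr4a2 window ends was joined to the next exon by a single read, in TAZ4A replicate 1. The start of Nr4a2-201, at chr2:57115038, was joined by 0, 2 and 4 reads in TAZ-CAMTA1, TAZ4A and control, so the window printed is not shown to be the one in use. Between exons 6 and 7, the junction of Nr4a2-201 had 1, 3 and 17 reads in TAZ-CAMTA1, TAZ4A and control, and the other splice end, used by Nr4a2-206, had 0, 2 and 8. Nr4a3 had 2, 3 and 1 spliced reads (exact p = 0.4).

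Of 9 tested genes within 500 kb of Nr4a1, 3 rose and 2 fell in TAZ-CAMTA1 against control, beside 16.8% and 15.3% of all genes, and 1 rose and 4 fell in TAZ4A against control, beside 13.2% and 11.7%. Without TAZ-CAMTA1 replicate 2 these counts were 4 and 2 for TAZ-CAMTA1, beside 28.5% and 32.3% of all genes, and 2 and 6 for TAZ4A, beside 28.1% and 30.3%. Of 5 tested genes near Nr4a3, 0 rose and 1 fell with TAZ-CAMTA1, 2 and 2 without that library, and 0 and 0 changed with TAZ4A, 1 and 0 without it. The nearest to Nr4a1, Atg101, an autophagy factor 9.51 kb away, averaged 39.5, 29.3 and 36.0 CPM in TAZ-CAMTA1, TAZ4A and control. With all libraries it passed the threshold in no comparison. Its TAZ4A difference from control, -0.29 ± 0.21, passed without TAZ-CAMTA1 replicate 2 (limma adjusted p = 0.00353). Acvrl1, the endothelial BMP receptor ALK1, rose by 0.69 ± 0.09 with TAZ-CAMTA1. The single tested neighbour of Nr4a2 was Gpd2, a mitochondrial glycerol-3-phosphate dehydrogenase, with differences of -0.30 ± 0.20 and -0.20 ± 0.20 from control with TAZ-CAMTA1 and TAZ4A that did not pass; without TAZ-CAMTA1 replicate 2 the TAZ4A difference passed (adjusted p from limma 0.00152).

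Signals that induce the family were followed through a list of 42 receptors, second messenger enzymes and kinases, of which 38 were tested. In TAZ-CAMTA1 against control 6 rose and 8 fell (median -0.08), beside 16.8% and 15.3% of all genes. Without replicate 2 the counts were 15 and 13, beside 28.5% and 32.3% of all genes, and the median turned to 0.05, while 5 fell without control replicate 2 or 3. Vegfa, the growth factor that induces NR4A1 in endothelium, rose by 1.49 ± 0.12, and Ptger4, a cAMP-raising prostaglandin receptor, fell by 0.71 ± 0.08. In TAZ4A against control 4 rose and 11 fell (median -0.19), beside 13.2% and 11.7% of all genes, and 10 and 21 without TAZ-CAMTA1 replicate 2, beside 28.1% and 30.3%, whereas without any single TAZ4A or control library 5 to 7 fell. Vegfa had 35.1, 36.5 and 34.7 CPM under the TAZ4A label and 11.6, 11.9 and 13.0 CPM in control, and rose by 1.504 ± 0.118 (limma adjusted p = 3.43e-05). Pde4b, a phosphodiesterase that degrades cAMP, fell by 1.00 ± 0.18 (limma adjusted p = 0.00419) and Adcy4, an adenylyl cyclase that makes it, fell by 0.83 ± 0.08 (limma adjusted p = 7.66e-05). Between both constructs, 7 rose and 4 fell in TAZ-CAMTA1 against TAZ4A, where 19.4% of all genes rose and 18.5% fell. Without TAZ-CAMTA1 replicate 2 the rises were 15, beside 30.8% of all genes. Without TAZ4A replicate 1 or 3 the falls were 2, beside 1569 and 1561 of all 12350 genes, where 2285 fell with all libraries.

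The factors that carry these signals to NR4A promoters, CREB and its co-activators, MEF2, SRF, NFAT and the class IIa deacetylases, were listed as 26 genes, of which 25 were tested. In TAZ-CAMTA1 against control 2 rose and 6 fell (median -0.37, all genes -0.03), beside 16.8% and 15.3% of all genes. Without replicate 2 the counts were 5 and 11, beside 28.5% and 32.3% of all genes, and the median was -0.14. Without single control libraries 0 to 1 rose and 2 to 3 fell, without single TAZ4A libraries 0 rose, and without TAZ-CAMTA1 replicate 3 1 rose. Crem, a CREB family member induced by cAMP, stood at 23.7, 25.99 and 22.3 CPM with TAZ-CAMTA1, at 20.5, 21.5 and 22.04 CPM under the TAZ4A label and at 34.6, 37.3 and 38.2 CPM in control. It fell against control by 0.60 ± 0.08 with TAZ-CAMTA1 and by 0.77 ± 0.08 with TAZ4A. In TAZ4A against control 9 fell and limma called 0 as risen, where 11.7% of all genes fell and 13.2% rose. There was 1 rise at an unadjusted p under 0.05 by limma, and 1 each by edgeR and DESeq2. Without TAZ-CAMTA1 replicate 2 the list had 2 rises and 17 falls, beside 28.1% and 30.3% of all genes. Hdac9, a deacetylase that holds MEF2 targets down, fell by 1.03 ± 0.18 and Crtc3, a CREB co-activator, by 0.74 ± 0.13 (limma adjusted p = 0.00344 and 0.00353). Both were higher with TAZ-CAMTA1 than TAZ4A, by 0.99 ± 0.18 and 0.81 ± 0.13.

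The other immediate early genes were called in both directions. Of 38 tested, 13 rose and 14 fell in TAZ-CAMTA1 against control (median -0.07, all genes -0.03), beside 16.8% and 15.3% of all genes. In TAZ4A against control 7 rose and 17 fell (median -0.31, all genes -0.01), beside 13.2% and 11.7%. In TAZ-CAMTA1 against TAZ4A 21 rose and 7 fell (median 0.34, all genes -0.02), beside 19.4% and 18.5%. Leaving out any single library moved none of the list's counts by over 1.5 times, except the falls of the last. Those were 11 without TAZ-CAMTA1 replicate 2, beside 32.2% of all genes. Ptgs2 had 8.09, 3.66 and 8.20 CPM with TAZ-CAMTA1, 86.3, 83.8 and 89.9 CPM under the TAZ4A label and 57.5, 58.0 and 64.3 CPM in control, and each fusion library lay below every other library. Rgs2, a brake on G protein signals, had 19.3, 19.4 and 16.4 CPM with TAZ-CAMTA1, 58.7, 56.4 and 60.7 CPM with TAZ4A and 63.6, 69.8 and 64.8 CPM in control. Fosb, an AP-1 subunit, fell against control with both constructs, by 1.54 ± 0.14 with TAZ-CAMTA1 and by 2.17 ± 0.14 with TAZ4A (limma adjusted p = 1.06e-05). Egr1, a serum-induced zinc finger factor, was highest with the fusion, at 635.7, 551.3 and 577.4 CPM, against 172.5, 174.6 and 172.9 CPM with TAZ4A and 216.7, 232.8 and 224.3 CPM in control. Klf10 fell by 1.37 ± 0.06 in the libraries labelled TAZ4A, and Ier3 rose by 1.72 ± 0.14 with TAZ-CAMTA1 and by 1.15 ± 0.14 with TAZ4A.

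**Figure D4:**
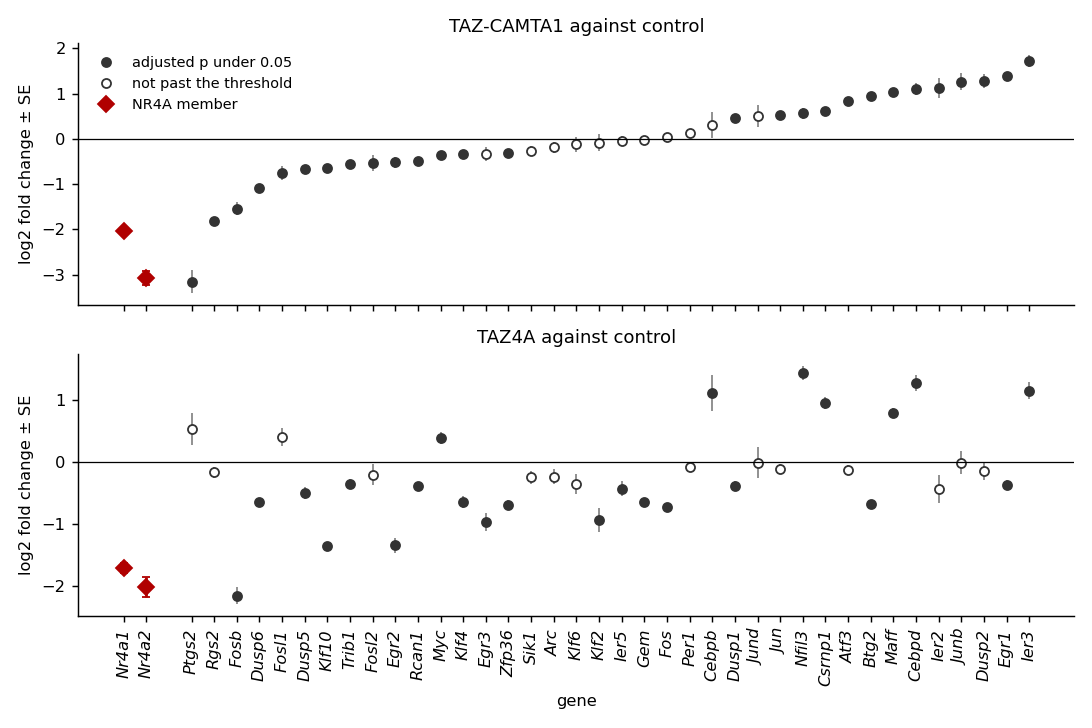
Log2 fold changes with standard errors (vertical axes) of Nr4a1 and Nr4a2 (diamonds) and of 38 other immediate early genes (circles, filled where the adjusted p is under 0.05; horizontal axis, ordered by the upper panel), for TAZ-CAMTA1 against control above and TAZ4A against control below, which share the control libraries. Nr4a1 lies at -2.04 and -1.71 and Nr4a2 at -3.08 and -2.03, with Ptgs2 (-3.16) the lowest circle above and Fosb (-2.17) the lowest below.

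Of 13 dimer partners and cofactors tested, 2 rose and 0 fell in TAZ-CAMTA1 against control by limma, beside 16.8% and 15.3% of all genes. There were 0 falls at an unadjusted p under 0.05 and 0 by edgeR and DESeq2. Without replicate 2 the counts were 4 and 3, beside 28.5% and 32.3% of all genes. In TAZ4A against control limma called 0 in either direction, where 13.2% of all genes rose and 11.7% fell. There were 2 rises and 1 fall at an unadjusted p under 0.05, and 2 rises by DESeq2. Without TAZ-CAMTA1 replicate 2 the list had 4 rises and 3 falls, beside 28.1% and 30.3% of all genes. Rxrb, a retinoid X receptor of the family that pairs with NR4A1 and NR4A2, rose by 0.51 ± 0.13 with TAZ-CAMTA1, a call lost without any single control library, and without single control, TAZ4A or TAZ-CAMTA1 libraries other than replicate 2, 0 to 2 of the list rose. Genes reported as NR4A targets in other tissues were mixed. Of 18 tested, 9 rose and 2 fell in TAZ-CAMTA1 against control, beside 16.8% and 15.3% of all genes. In TAZ4A against control 8 rose and 4 fell, beside 13.2% and 11.7% of all genes. The falls with TAZ-CAMTA1 were 5 without its replicate 2, beside 32.3% of all genes. They were 1 without control replicate 2 or 3 or any single TAZ4A library. Bcl2l11, the pro-apoptotic BIM, had 171.8, 117.9 and 181.1 CPM with TAZ-CAMTA1, 108.9, 108.8 and 111.2 CPM with TAZ4A and 300.3, 264.2 and 286.5 CPM in control, and fell in both comparisons with control. Vcam1, a leukocyte adhesion molecule, rose by 1.47 ± 0.12 in the libraries labelled TAZ4A, and Itgb4, an integrin subunit, fell by 1.34 ± 0.10 there.

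The genes whose level followed each member most closely over the 9 libraries, which fall into 3 groups, were found among 11553 tested genes of at least 1 CPM, by Pearson correlation of log2(CPM + 0.5) and as a description. For Nr4a1 they were Rab11b (0.997), Atp6ap1, Galm, Agfg2 and Mocs1, and for Nr4a2 Dusp6 (0.995), Uvrag, Tacc2 and Ppap2b. The members correlated at 0.965 with each other, rank 41 for Nr4a1 and 70 for Nr4a2, and at 0.991 without TAZ-CAMTA1 replicate 2. Without that library Galm, Rab11b and Atp6ap1 stayed among the 5 for Nr4a1, whereas none of the genes just named for Nr4a2 stayed among its 5, which then included Rab11b, Gclc, Tram1 and Hist2h2be. Dusp6, a phosphatase that restrains ERK and an immediate early gene itself, averaged 64.6 ± 2.40, 88.0 ± 1.57 and 138.5 ± 2.17 CPM in TAZ-CAMTA1, TAZ4A and control cells (SD, n = 3 each).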

How the data were processed

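Poly-A RNA was sequenced with a stranded kit on an Illumina HiSeq, per the labels. Per the submitters' processing notes, bcl2fastq, FastQC, STAR, featureCounts and edgeR were used on mm10, with versions not given in the sources used here. The authors deposited CPM as a signal scaled by library factors: sums ranged from 976997 to 1028367, so the values were entered as signal where the design had assumed CPM, with the planned test kept. All values (100%, tolerance 0.01 reads) were whole multiples of 1 read, so counts of reads were recovered from the deposited values. The deposited TPM values served for levels between genes, the authors' deposited log2 fold changes and p-values (FDR) are quoted as theirs, and the deposited STAR junction files hold counts of uniquely mapped reads. Transcript tables were not used. Every per-sample column was mapped. The authors' likelihood ratio scores are in the deposited table and were not used.

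Groups and replicate numbers came from the titles. limma 3.58.1 (R 4.3.3, trend and robust) was fitted to log2(CPM + 0.5) of all 9 libraries, with 6 residual degrees of freedom, over the 12350 genes that reached 0.5 CPM in 3 or more libraries, and p-values were adjusted by Benjamini-Hochberg (threshold 0.05). edgeR 4.0.16 on the recovered reads called 3942, 3078 and 4674 genes in TAZ-CAMTA1 against control, TAZ4A against control and TAZ-CAMTA1 against TAZ4A, beside 3966, 3077 and 4684. DESeq2 1.42.0 was another alternative. The model was also run on simulated data, with the same spread in every library and changes only in genes of at least 5 CPM. That simulation held no outlying library, so it does not speak to the effect of TAZ-CAMTA1 replicate 2. Junction reads used exact permutation tests. Members, lists and tests were chosen with earlier results of these data known. Named genes are the members, up to 3 called rises and falls per list with at least 5 CPM, neighbours within 500 kb and the 5 most alike; some genes that the rule names are not reported here. Strand use in counting is not given, so antisense and overlapping genes are not told apart. Promoter windows are RefSeq's (GRCm38.p6), and all 3 members matched.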

Additional observations from a re-analysis of the deposited data

How the results depend on the processing

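Of the 22 alternatives, all kept the sign of each Nr4a1 and Nr4a2 difference, and both TAZ4A calls against control held in all 22, with log2 changes of -1.73 to -1.65 for Nr4a1 (adjusted p up to 3.02e-05) and -2.20 to -1.63 for Nr4a2 (up to 4.35e-04). Several of the 22 left the log2 difference unchanged by construction. These were the fit of 6 samples, the other filters, the replicate block and leaving out a library outside the comparison. The differences that hold the fusion libraries chose the genes, so their sign is no support. Nr4a3 did not pass the filter; without it, the TAZ4A difference from control was 0.05 ± 0.098 (limma adjusted p = 0.789). For Nr4a2, TAZ-CAMTA1 against control was -3.54 by DESeq2, -3.53 by edgeR, -3.47 with a pseudocount of 0.1 and -2.26 with 2, and against TAZ4A -1.34, -1.33, -1.30 and -0.62; the pseudocount acts by construction on so few reads. TPM gave -0.44 for Nr4a1 against TAZ4A and moved the median of all genes there to -0.13, from -0.02; the cause was not tested.

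Calls in TAZ-CAMTA1 against control (3966) were 2445 in a fit of the 6 samples and 7255 with library weights, and 2626 to 7516 without single libraries. Those in TAZ4A against control (3077) were 7233, 7432 and 2101 to 7206, and those in TAZ-CAMTA1 against TAZ4A (4684) were 8272 with weights and 3236 to 7779 without single libraries. Among fits without a single library, the highest counts came without TAZ-CAMTA1 replicate 2. With CPM rescaled to equal sums TAZ4A against control had 1967 rises and 1106 falls, beside 1630 and 1447. The replicate numbers share no stated source and the correlations of same-numbered deviations ran from -0.12 to 0.52, not all over 0.1. With a replicate block, 3881, 2890 and 4619 genes were called, and Nr4a1 and Nr4a2 kept adjusted p of 2.18e-05 and 1.12e-04 in TAZ4A against control. Depth limits Nr4a3 and the 5′ junctions of Nr4a2.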
